A study of Mus musculus with 14 samples.

Results

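The genes described here relay the signals of estrogen and progesterone from the mammary cells that sense these hormones to their neighbours. They were taken from the expression table by gene symbol, and all 8 named genes (Areg, Wnt4, Rspo1, Tnfsf11, Calca, Tnfrsf11a, Tnfrsf11b and Adamts18) were present among its 16124 genes. RNA was sequenced from primary mammary epithelial cells of 7 wild-type (WT) females and 7 Usp22 OE/OE females, all 3.5 months old, with 1 library per mouse. Every OE/OE mouse had a WT littermate as its control, which gave pairs 1, 3, 4, 5, 6, 7 and 8 as the labels number them. The OE/OE mice were homozygous for a tagged Usp22 cDNA under the CAGGS promoter at the ROSA26 locus, whose STOP cassette had been removed with ZP3-Cre, which was meant to give expression in all tissues and not in mammary epithelium alone. The stage of the estrous cycle at dissection and the parity of the sequenced mice are not given in the sources used here. The comparisons asked whether Usp22 overexpression changed these mediators within litters, and how far the hormonal state read from them differed between litters and between littermates.

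Estrogen and progesterone act on a minority of luminal cells that carry their receptors, and these hormone-sensing cells pass the signal on with secreted factors. Estrogen receptor induces amphiregulin (Areg), which is released from the cell surface and activates the EGF receptor in the stroma. Progesterone receptor induces WNT4 and RANKL (Tnfsf11): WNT4 acts on basal cells, where R-spondin 1 (Rspo1) strengthens the Wnt signal, and RANKL acts through its receptor RANK (Tnfrsf11a) on luminal progenitors, which then divide. Osteoprotegerin (Tnfrsf11b) is a soluble decoy that keeps RANKL from RANK. Calca, which encodes calcitonin and the calcitonin gene-related peptide, is a progesterone-induced gene of luminal cells, and ADAMTS18 is a secreted protease of myoepithelial cells that remodels the basement membrane downstream of WNT4. These relays drive ductal side branching, and in cycling females they rise and fall with the estrous cycle.

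Of the 8 genes, 7 had a promoter sequence in RefSeq (GRCm38.p6), and the 250 bases before the annotated start are shown 5′ to 3′ for Areg, the mediator of the estrogen arm, and for Calca, Rspo1 and Tnfsf11, whose levels varied most between mice. Capitals mark matches, on either strand, to the cyclic AMP response element (TGACGTCA), a single arm of the estrogen response element (AGGTCA) and the TATA box (TATAA). The windows are chr5:91139349-91139598 on the plus strand for Areg, chr7:114636358-114636607 on the minus strand for Calca, chr4:124986180-124986429 on the plus strand for Rspo1 and chr14:78308044-78308293 on the minus strand for Tnfsf11.
Areg: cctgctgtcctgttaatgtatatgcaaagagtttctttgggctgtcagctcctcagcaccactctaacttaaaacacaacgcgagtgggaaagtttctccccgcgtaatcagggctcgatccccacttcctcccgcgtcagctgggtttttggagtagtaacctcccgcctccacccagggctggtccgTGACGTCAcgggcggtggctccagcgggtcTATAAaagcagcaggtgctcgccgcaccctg
Calca: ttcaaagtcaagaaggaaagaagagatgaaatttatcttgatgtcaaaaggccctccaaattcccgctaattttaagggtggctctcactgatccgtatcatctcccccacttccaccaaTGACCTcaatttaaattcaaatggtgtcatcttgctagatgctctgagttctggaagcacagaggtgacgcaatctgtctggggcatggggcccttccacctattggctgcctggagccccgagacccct
Rspo1: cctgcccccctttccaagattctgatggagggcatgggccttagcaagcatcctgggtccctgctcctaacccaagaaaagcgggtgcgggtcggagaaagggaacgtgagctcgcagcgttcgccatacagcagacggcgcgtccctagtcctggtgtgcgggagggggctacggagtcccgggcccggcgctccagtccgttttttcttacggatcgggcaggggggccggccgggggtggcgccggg
Tnfsf11: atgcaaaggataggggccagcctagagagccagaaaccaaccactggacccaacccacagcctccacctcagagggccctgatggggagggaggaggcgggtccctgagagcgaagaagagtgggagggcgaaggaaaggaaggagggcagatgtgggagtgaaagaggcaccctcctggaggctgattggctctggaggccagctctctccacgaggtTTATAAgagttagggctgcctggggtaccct
The Areg window held a cyclic AMP response element from base -61 to base -54, counted back from the start, as did 1.55% of 32851 promoter windows of this length. It also held a TATA box from -31 to -27, and Tnfsf11 had overlapping matches to this box on both strands from -31 to -26; 22.8% of all windows held a match. In Calca a single arm of the estrogen response element lay from -130 to -125, on the opposite strand, a motif found in 14% of windows. The full estrogen response element (in 0.0639% of windows), the full progesterone response element (in 0.00913%), its single arm (TGTTCT, in 16.1%) and the STAT5 site (TTCNNNGAA, in 7.02%) had no match in the windows of the 7 genes, which says only that these letters are not in these windows.

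The libraries held between 20125106 and 41835978 fragments counted on genes, and each value below is a count divided by the library's size factor (normalized count). Usp22 had between 3500 and 5380 normalized counts in WT mice and between 74948 and 144288 in OE/OE mice, without overlap, as the genotype labels have it. Pan-epithelial markers averaged 13.86 to 14.36 on the log2(normalized count + 1) scale in WT and 14.03 to 14.55 in OE/OE. For 6 of the 7 pairs this mean was larger in the OE/OE littermate (p = 0.0312 in the exact sign-flip test). That p was not adjusted for the 19 gene lists tested, so it is weak evidence of a rise with genotype. Of the 10 genes, 2 were called higher, against 1.95% of all genes, and none had an adjusted p under 0.05. Genes of other cells were also present, with fibroblast markers at 12.2 to 13.4 in WT and 11.4 to 13.0 in OE/OE. All 10 markers of the pan-epithelial list and of the fibroblast list were in the table. In these bulk libraries fewer cells of a type and less RNA per cell cannot be told apart. The OE/OE mouse of pair 4 stood apart from the rest: 27.0% of all genes were highest and 25.3% lowest in this library among the 14, followed by 17.9% and 19.3% in the OE/OE mouse of pair 5. Results that rest on pair 4 are given with and without it where both were computed.

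Expression per length, as normalized counts per kilobase of exon, spread the 8 genes over a wide range. Areg was the most abundant, with a median of 13763 per kilobase over the 14 libraries, above 99.5% of all genes. Wnt4 followed at 1001 per kilobase and Tnfrsf11a at 105. Each of these exceeded the next gene in order in at least 13 of 14 libraries (exact sign-flip test over the 7 litter means, two-sided p = 0.0156, the smallest that 7 litters allow). The medians of Adamts18 (45.8 per kilobase), Rspo1 (40.9) and Tnfrsf11b (38.5) lay close together, and neighbours in this order did not differ beyond the spread of the litters (exact sign-flip p = 0.516 and 0.344). Tnfsf11 had a median of 11.8 per kilobase, below Tnfrsf11b in 13 of 14 libraries (exact sign-flip p = 0.0312), and Calca one of 9.33, which was not distinguishable from Tnfsf11 (exact sign-flip p = 0.344). At its median, Calca lay above only 11.3% of genes, yet its highest library reached 7418 per kilobase.

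The genes also varied to different extents between mice. The SD of log2 levels over the 14 libraries was 0.29 for Wnt4 and 0.37 for Tnfrsf11a, below the median of 0.41 over all genes. It was 0.60 for Areg, 0.51 for Tnfrsf11b and 0.84 for Adamts18. Rspo1, Tnfsf11 and Calca varied far more, with SDs of 1.33, 1.499 and 3.60. Calca had the 2nd largest SD of the 16120 gene symbols, Tnfsf11 the 172nd and Rspo1 the 263rd.

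**Figure D1:**
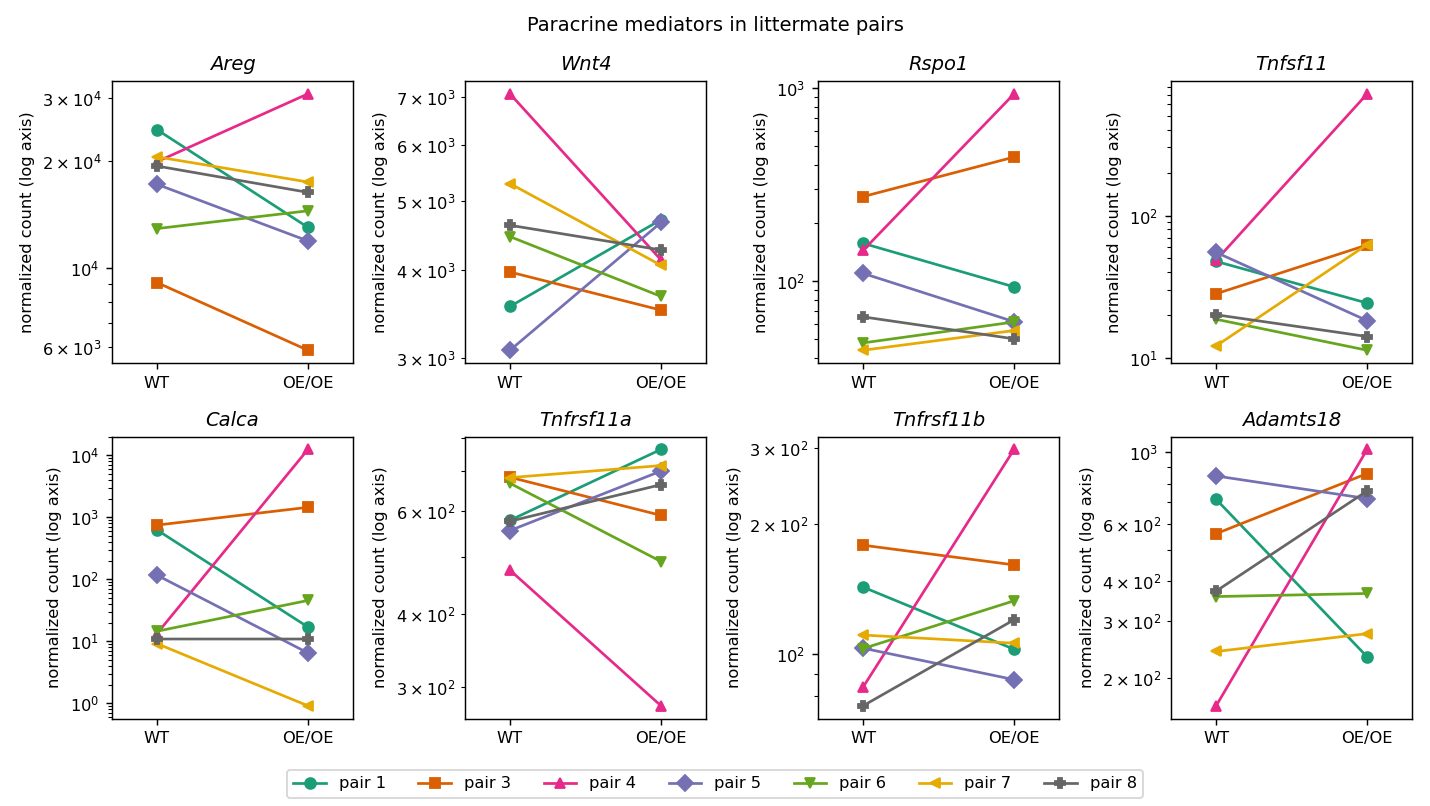
Normalized counts (log axis) of the 8 genes in WT and OE/OE mice, with a line joining the littermates of each pair. Calca runs from 0.907 to 12492 normalized counts and the OE/OE mouse of pair 4 is the highest of 14 in 6 panels, while Wnt4 stays between 3078 and 7082.

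In the comparison of OE/OE with WT littermates, no gene of the 8 passed the test. With limma and the pair as a block, 0 of 8 had an unadjusted p of 0.05 or less, the threshold of the study, where 614 of the 16124 genes (3.81%) did; edgeR and DESeq2 on the recovered fragments also gave 0 of 8. All 8 had a limma adjusted p of 1.00, where 0.0124% of all genes had one under 0.05, and the exact sign-flip p over the pairs ran from 0.25 to 0.969. The log2 fold changes had a median of 0.19, against -0.0015 over all genes, with 5 above and 3 below 0, and no gene moved the same way in all 7 pairs. The intervals were wide for the most variable genes, so a moderate change in these could not be detected with 7 pairs.

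Areg, the estrogen-induced EGF receptor ligand (chromosome 5, 91139599 to 91148432, GRCm38), had a lowest, median and highest value of 9082, 19317 and 24452 normalized counts in WT and of 5857, 14451 and 30826 in OE/OE. The genotypes overlapped, and OE/OE was the lower littermate in 5 of 7 pairs. WT mice averaged 17606 ± 5139 and OE/OE mice 15672 ± 7664 normalized counts (SD, n = 7). The log2 fold change was -0.25 with a 95% interval of -0.63 to 0.13 (limma unadjusted p = 0.170). Pair 4 ran against the majority, from 19858 in WT to 30826 in OE/OE. Without pair 4 the log2 fold change was -0.40 and passed the unadjusted threshold, as did 1366 of all 16124 genes in that fit. Areg did not pass after adjustment over all genes (limma adjusted p = 0.528).

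Wnt4, the progesterone-induced Wnt ligand (chromosome 4, 137277489 to 137299726), had values of 3078 to 7082 normalized counts in WT (median 4453) and of 3507 to 4704 in OE/OE (median 4129). The OE/OE range lay inside the WT range, and OE/OE was lower in 5 of 7 pairs. Its log2 fold change was -0.10 (95% interval -0.44 to 0.24). Rspo1, the secreted amplifier of Wnt signals (chromosome 4, 124986430 to 125009099), had 43.7 to 274 normalized counts in WT (median 110) and 50.1 to 934 in OE/OE (median 61.5), a log2 fold change of 0.30 with an interval of -0.54 to 1.15. Rspo1 was higher in OE/OE in 4 of 7 pairs, and only pair 4 differed by more than 1 on the log2 scale (2.69). Gm12930 is annotated on the strand opposite to Rspo1 and overlaps it by 580 bp, and is not in the table.

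Tnfsf11, which encodes RANKL (chromosome 14, 78277445 to 78308043), was low in most mice. It had 12.2 to 55.2 normalized counts in WT (median 28.3), and 11.4 to 62.6 in the OE/OE mice other than that of pair 4, which had 712. The log2 fold change of 0.51 had a 95% interval of -0.85 to 1.88. Within pairs it ranged from -1.54 in pair 5 to 3.84 in pair 4, and OE/OE was higher in 3 pairs (3, 4 and 7). Without pair 4 the log2 fold change was -0.04. Its receptor RANK (Tnfrsf11a; chromosome 1, 105780718 to 105847981) had 474 to 684 normalized counts in WT (median 578) and 278 to 764 in OE/OE (median 665). The log2 fold change was -0.06 (95% interval -0.39 to 0.27), and the lowest library was the OE/OE mouse of pair 4. The decoy receptor osteoprotegerin (Tnfrsf11b; chromosome 15, 54250619 to 54278484) had 76.0 to 179 normalized counts in WT (median 103) and 87.4 to 298 in OE/OE (median 120), a log2 fold change of 0.27 (95% interval -0.30 to 0.85). Without pair 4 it was 0.015.

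The balance between ligand and decoy was read from RNA alone, as the ratio of Tnfsf11 to Tnfrsf11b per kilobase. It was 0.139 to 0.730 in WT (median 0.334) and, in OE/OE, 0.108 to 3.01 (median 0.299). Tnfsf11 RNA exceeded Tnfrsf11b RNA in 1 of the 14 mice, the OE/OE mouse of pair 4 (3.01), and the next highest ratio was 0.743 in the OE/OE mouse of pair 7. The genotypes did not differ in this ratio beyond the spread of the pairs (mean pair log2 difference 0.24, SD 1.63, exact sign-flip p = 0.719). Without pair 4 the mean difference was -0.064 (SD 1.56, exact sign-flip p = 0.906).

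Calca, the calcitonin gene (chromosome 7, 114631478 to 114636357), spanned a wide range of levels. In WT it had 627 normalized counts in pair 1, 749 in pair 3, 117 in pair 5, and between 9.15 and 14.5 in pairs 4, 6, 7 and 8. In OE/OE it had 12492 in pair 4, 1452 in pair 3, 45.5 in pair 6, and between 0.907 and 16.9 in pairs 1, 5, 7 and 8. The lowest value, in pair 7, was a single fragment, and the highest stood on 13025 fragments. High mice occurred in both genotypes, so the log2 fold change of 0.11 had a 95% interval from -3.24 to 3.47 and an exact sign-flip p of 0.969. Littermates differed in either direction, by 9.78 on the log2 scale in favour of OE/OE in pair 4 and by -5.13 in pair 1.

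Adamts18, the protease of myoepithelial cells (chromosome 8, 113697126 to 113848738), had 164 to 845 normalized counts in WT (median 372) and 233 to 1021 in OE/OE (median 719). OE/OE was higher in 5 of 7 pairs, and the log2 fold change was 0.38 (95% interval -0.51 to 1.27). The range within pairs ran from -1.61 in pair 1 to 2.63 in pair 4. Without pair 4 the log2 fold change was 0.0022.

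**Figure D2:**
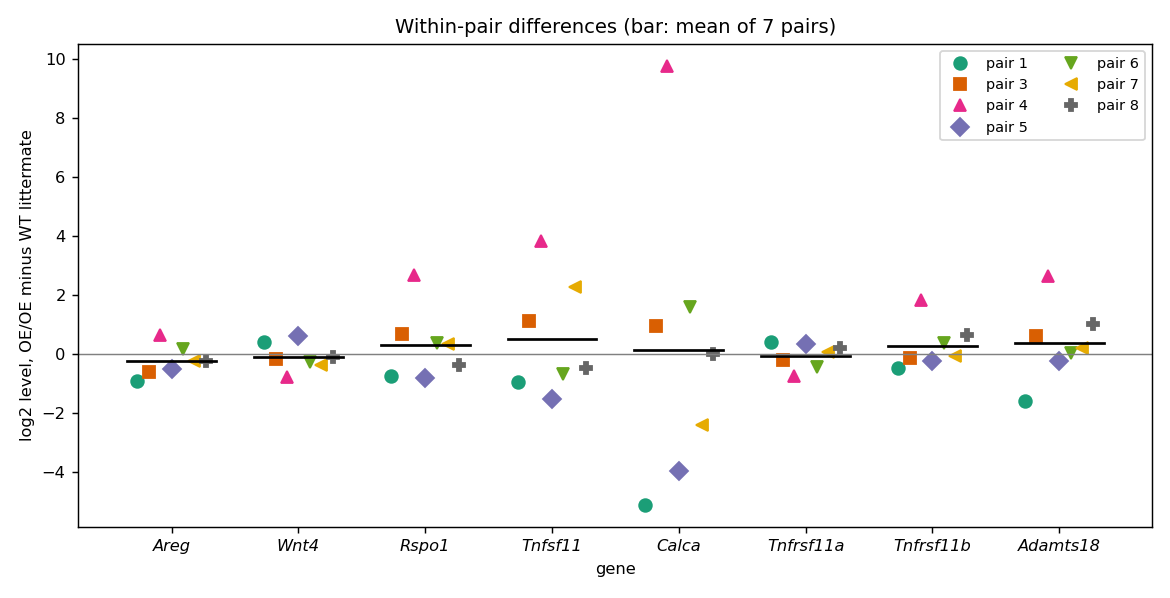
Log2 level of the OE/OE mouse minus that of its WT littermate for each gene (points: 7 pairs, bar: their mean). Calca spreads from -5.13 in pair 1 to 9.78 in pair 4, and no gene has all 7 points on the same side of 0.

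Of 10 adipocyte markers, 5 were called lower in OE/OE (1.85% of all genes were), none with an adjusted p under 0.05. The mean of the list was lower in OE/OE in 6 of 7 pairs, most in pair 4 at -2.18. It ran from 6.32 to 8.48 in OE/OE and from 7.52 to 9.10 in WT (log2 scale). The exact sign-flip p of 0.0469 for this mean was not adjusted for the number of gene lists tested. It is thus weak evidence of a fall with genotype. The 5 genes were Adipoq, Plin1, Cidec, Retn and Cfd, at 24.1 to 205 mean normalized counts in WT. Plin4 (log2 fold change -0.28), Lpl (-0.36), Fabp4 (-0.36), Pparg (0.0013) and Lipe (0.20), at 408 or more, did not pass. With the mean of the adipocyte list as a covariate, 3 of the 8 mediators passed the unadjusted threshold, as did 2450 of all 16124 genes. All 3 were lower in OE/OE: Areg at -0.63, Calca at -3.78 and Adamts18 at -0.68 (log2 fold change), with limma adjusted p of 0.189, 0.189 and 0.199. With the mean of 10 hormone-sensing luminal markers as a covariate, Areg (-0.39, limma adjusted p = 0.493) and Calca (-1.51, limma adjusted p = 0.531) passed, as did 1380 of all 16124 genes. The hormone-sensing list ran from 12.3 to 13.0 in WT and from 11.6 to 12.9 in OE/OE, lowest in the OE/OE mouse of pair 4. The part of either cell type in these values was not tested.

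The litters differed in some of the mediators. In the limma F test over the pair coefficients, 2 of 8 genes (25.0%) had an adjusted p under 0.05, Areg (adjusted p = 0.0293) and Rspo1 (0.0297), against 5370 of 16124 genes (33.3%), a share no higher than the background. Litter, day of dissection and any shared handling cannot be told apart. Areg was lowest in both mice of pair 3, at 9082 and 5857 normalized counts, while every other mouse had at least 11888. Without pair 3 its litter difference was lost (limma adjusted p = 0.297). Rspo1 was high in both mice of pair 3 (274 in WT and 439 in OE/OE) and lay between 43.7 and 65.1 in the 6 mice of pairs 6, 7 and 8. Its litter difference was lost without pair 3 (limma adjusted p = 0.0862), pair 6 (0.0517) or pair 7 (0.0649). The other 6 genes had limma adjusted p between 0.155 and 0.594 for the litters.

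The hormonal state of the litters was also read from the receptors. Of 10 genes on a list of ovarian hormone receptors and their cofactors, 8 differed between litters (33.3% of all genes did) and none passed the test for genotype. Pgr, the progesterone receptor and itself an estrogen-induced gene, had 21707 and 22560 normalized counts in the WT and OE/OE mice of pair 7, 15666 and 16239 in pair 8, and 10102 and 19544 in pair 5. In the other litters it lay between 1932 and 6905 (limma adjusted p for litters 0.0035). Greb1, an estrogen receptor target, was highest in the same litters, with 822 and 1676 in pair 7, 262 and 785 in pair 8 and 190 and 243 in pair 5, and lay between 30.7 and 84.9 in the others (limma adjusted p for litters 0.0027). Of 10 listed estrogen response genes, however, only 4 (40%) differed between litters, near the 33.3% of all genes: Pgr, Greb1, Myb and Ctsd. Xbp1, Stc2, Igfbp4, Ccnd1, Krt19 and Tfap2c did not (limma adjusted p for litters 0.154 to 0.546).

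Set beside the mediators, the litters read as follows. Pair 7, with the highest Pgr and Greb1, had 20499 and 17415 normalized counts of Areg in WT and OE/OE and only 9.15 and 0.907 of Calca, while Tnfsf11 parted its littermates at 12.2 and 62.6. Pair 8 had Areg at 19317 and 16284 and Calca at 10.9 in both mice. Pair 3 had the lowest Areg and the highest litter level of Adamts18 after pair 5, with Calca high in both mice (749 and 1452). Calca also parted the littermates of pairs 1, 4 and 5: it was 627 and 16.9 in pair 1, 117 and 6.47 in pair 5, and 13.3 and 12492 in pair 4. In pair 6 every mediator differed by less than 1 on the log2 scale between littermates except Calca (14.5 and 45.5).

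Mki67, a gene of dividing cells, had 66.3 normalized counts in the WT mouse of pair 4 and 2627 in its OE/OE littermate, the lowest and the highest of the 14 libraries. A list of 15 cell cycle genes was likewise at 5.52 and 10.3 in these mice (mean log2 level), and none of the 15 passed the test for genotype. High Mki67 did not always go with high Calca. In pair 6 Mki67 had 2025 and 1566 normalized counts in WT and OE/OE while Calca had 14.5 and 45.5, and in pair 3 the OE/OE mouse had 1452 normalized counts of Calca and 151 of Mki67. The WT mouse of pair 1 was high in both, with 627 of Calca and 1472 of Mki67.

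**Figure D3:**
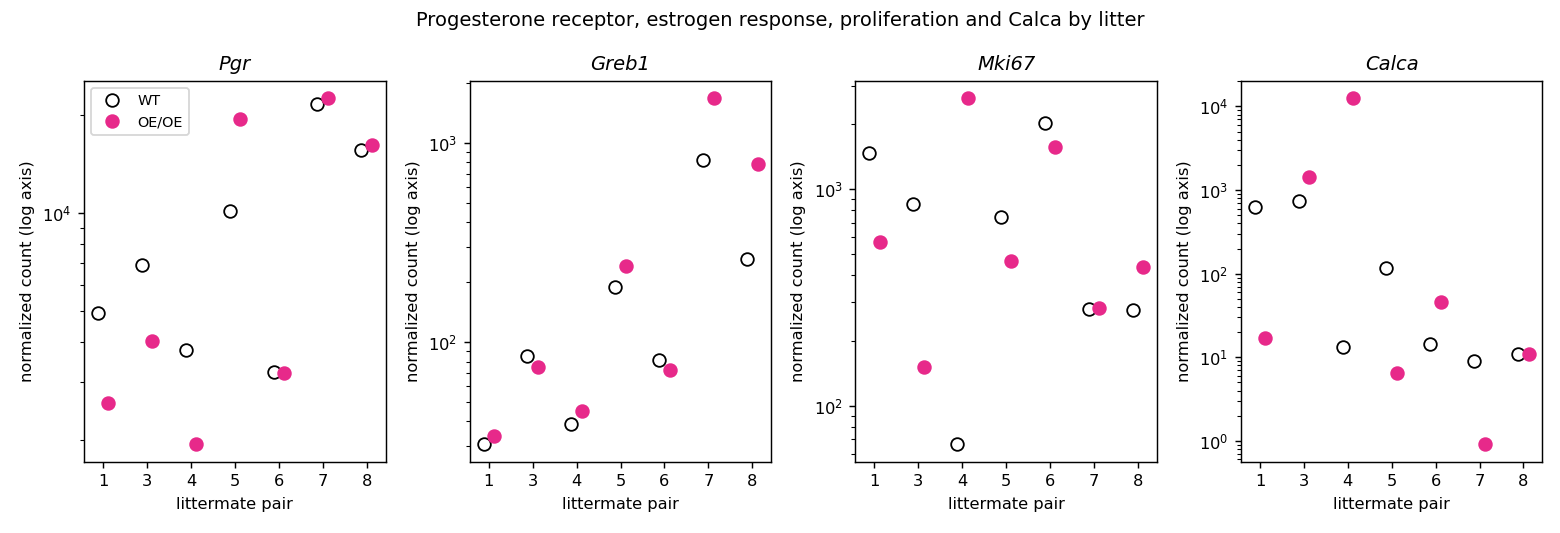
Normalized counts (log axis) of Pgr, Greb1, Mki67 and Calca in the WT (open) and OE/OE (filled) mouse of each littermate pair. Pgr is at 10102 or more in both mice of pairs 5, 7 and 8 and at 6905 or less in the others, whereas Calca and Mki67 part the littermates of pair 4.

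The OE/OE mouse of pair 4 carried the most extreme values of the group. It was the highest of 14 mice for 6 of the 8 genes (Areg, Rspo1, Tnfsf11, Calca, Tnfrsf11b and Adamts18) and the lowest for Tnfrsf11a, where 27.0% and 25.3% of all genes were highest and lowest in it. Wnt4 was 8th from the top in this mouse and highest in its WT littermate, at 7082 normalized counts. That littermate had the lowest Adamts18 of all mice (164) and 13.3 normalized counts of Calca. Pgr (1932) and Prlr (14429), the prolactin receptor, were at their lowest of 14 in the OE/OE mouse. So were the list means of hormone-sensing luminal (11.6), adipocyte (6.32), fibroblast (11.4), endothelial (10.5) and macrophage markers (8.60). Pan-epithelial markers were highest in it (14.55), and luminal progenitor, basal and lymphocyte markers were at neither extreme. The part of cell content in the values of this mouse was not tested.

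The differences between littermates were related from gene to gene mainly through pair 4. Over the 7 within-pair log2 differences, 28 relations between the genes were computed, of which 23 had an exact permutation p under 0.05 for Pearson's r and 19 an adjusted p under 0.05; for Spearman's rho none of 28 passed the adjustment. Of the 28 relations, 78.6% had an absolute r of at least 0.763, the smallest that passed, where 12.5% of all gene pairs in the table did. Without pair 4 the shares were 14.3% of the 28 relations and 10.8% of all gene pairs, close to each other, and the median absolute r was 0.65 against 0.39. Signs were regular: Areg, Rspo1, Tnfsf11, Calca, Tnfrsf11b and Adamts18 were positively related to each other, Wnt4 and Tnfrsf11a were positively related, and all 12 relations across these sets were negative. Both sets were drawn from these same signs, so the signs are no test of them. Over the pair mean levels 7 of the 12 relations across the sets were negative. With the 2 pairs farthest from the median on the x axis left out, 26 of 28 relations kept their sign, and all 12 across the sets stayed negative.

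By Pearson's r over all 7 pairs the closest relation was between Rspo1 and Calca (r = 0.94, exact permutation p = 0.0085, adjusted p = 0.0265; rho = 0.89, exact p = 0.0123, adjusted p = 0.0833). Without pairs 4 and 5 it was r = 0.69. Calca and the RANKL receptor Tnfrsf11a went in opposite directions (r = -0.93, exact permutation p = 0.0014, adjusted p = 0.0265; rho = -0.96, exact p = 0.0028, adjusted p = 0.0778), and r was -0.82 without pairs 1 and 4. Rspo1 and Tnfrsf11a gave r = -0.92 (exact permutation p = 0.0022, adjusted p = 0.0265; rho = -0.93, exact p = 0.0067, adjusted p = 0.0833), with r = -0.83 without pairs 4 and 5. Wnt4, although a ligand of the progesterone arm, ran opposite to Tnfsf11 (r = -0.86, exact permutation p = 0.0137, adjusted p = 0.0345; rho = -0.89, exact p = 0.0123, adjusted p = 0.0833), and r was -0.63 without pairs 4 and 5. Calca and Adamts18 moved together (r = 0.91, exact permutation p = 0.0069, adjusted p = 0.0265; rho = 0.75, exact p = 0.0663, adjusted p = 0.109), with r = 0.51 without pairs 1 and 4. Areg and Adamts18 rested on pairs 1 and 4: r was 0.80 (exact permutation p = 0.0327, adjusted p = 0.0497; rho = 0.57, exact p = 0.2) and -0.13 without them. Tnfsf11 and Calca, both induced by progesterone, had r = 0.73 (exact permutation p = 0.0504, adjusted p = 0.0588; rho = 0.64, exact p = 0.139).

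Over the litter means, 2 of 28 relations passed the adjustment for r and none for rho. An absolute r of at least 0.817, the smallest that passed, was reached by 14.3% of the 28 relations and by 13.3% of all gene pairs, a share close to the background. Rspo1 rose with Calca (r = 0.95, exact permutation p = 0.0016, adjusted p = 0.0333; rho = 0.93, exact p = 0.0067, adjusted p = 0.0944), with r = 0.88 when pairs 3 and 4 were left out. Rspo1 also rose with Tnfsf11 (r = 0.82, exact permutation p = 0.0024, adjusted p = 0.0333; rho = 0.89, exact p = 0.0123, adjusted p = 0.115), with r = 0.67 without pairs 3 and 4. Areg and Wnt4 had r = 0.81 over the litter means (exact permutation p = 0.0313, adjusted p = 0.176; rho = 0.93, exact p = 0.0067, adjusted p = 0.0944) and -0.81 over the within-pair differences (exact permutation p = 0.0313, adjusted p = 0.0497; rho = -0.79, exact p = 0.048, adjusted p = 0.103). The relation over the litter means did not pass the adjustment, and had r = 0.80 without pairs 3 and 4. Over the within-pair differences, r was -0.49 without pairs 1 and 4.

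**Figure D4:**
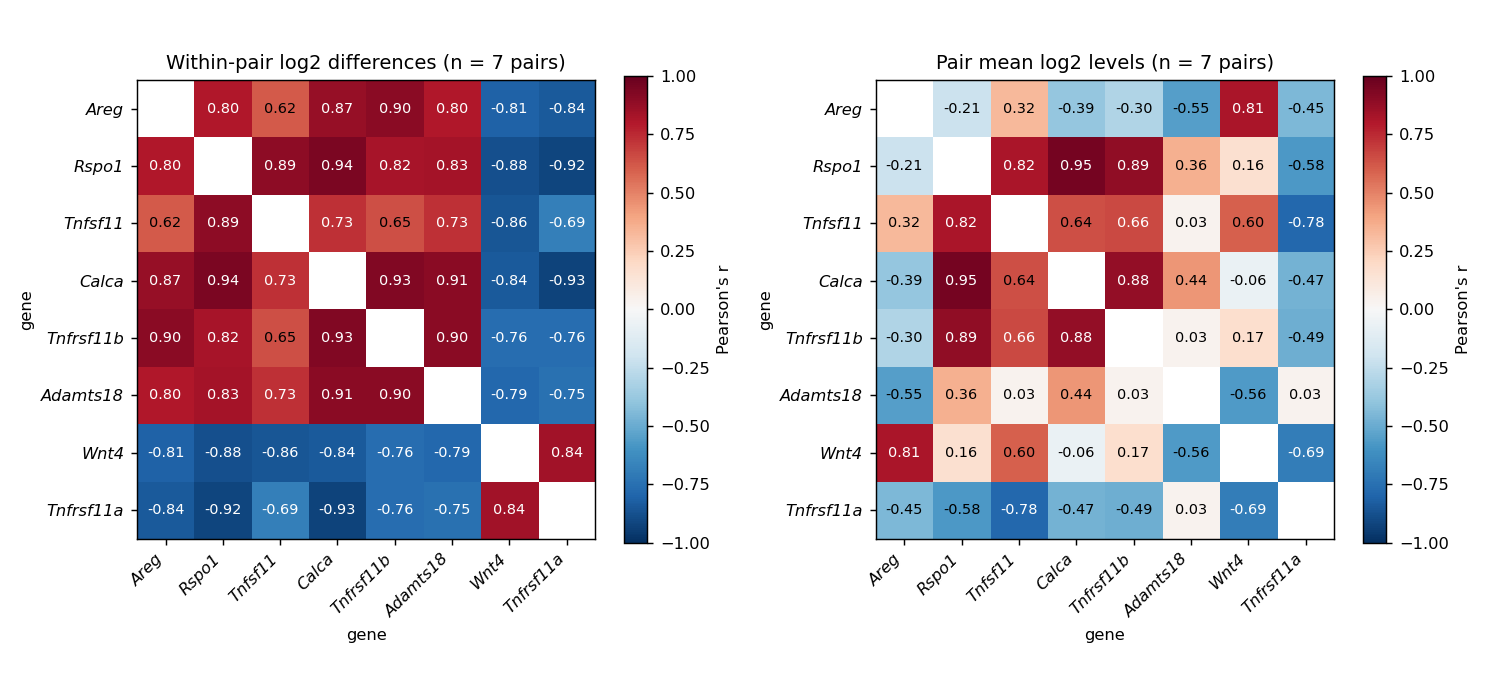
Pearson's r between the genes over the 7 within-pair log2 differences (left) and over the 7 pair mean log2 levels (right). On the left, Wnt4 and Tnfrsf11a form a block opposite to the other 6 genes; on the right Rspo1 and Calca have the highest r (0.95).

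**Figure D5:**
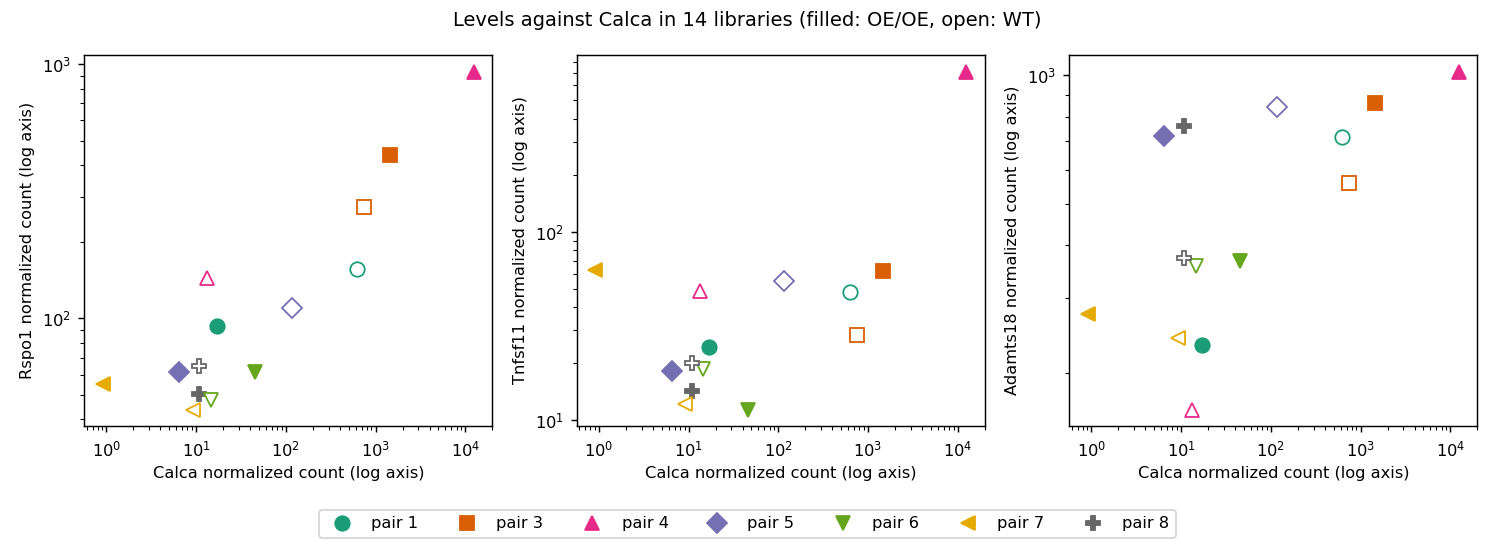
Normalized counts of Rspo1, Tnfsf11 and Adamts18 against those of Calca in the 14 libraries (log axes, filled: OE/OE, open: WT). Rspo1 and Calca are both highest in the OE/OE mouse of pair 4 (934 and 12492), followed by the OE/OE mouse of pair 3 (439 and 1452).

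Genes with the most similar pattern over the 14 libraries, after subtraction of the genotype mean, are given as a description. For Calca they were Nnat (Pearson's r = 0.95), Dvl2 (0.95) and Atp6v1c2 (0.95). For Rspo1 they were Prpsap1 (0.98), Rfxap (0.97) and Tmem117 (0.97), for Tnfsf11 Armc6 (0.97), N6amt1 (0.93) and Adrm1 (0.93), and for Adamts18 Nlgn1 (0.97), Col17a1 (0.94), a collagen of basal cells, and Adamts17 (0.92). For Areg they were Cd1d2 (0.88), Psrc1 (0.88) and Far2 (0.87), and for Tnfrsf11b Dlk2 (0.97), Cyb5r4 (0.92) and Sh3kbp1 (0.91). Of these 18 genes, 17 were highest in the OE/OE mouse of pair 4, as were the 6 mediators themselves and 27.0% of all genes. For Tnfrsf11a they were Creb3l1 (0.94), Csf2rb2 (0.94) and Zfp423 (0.93), all 3 lowest in the same mouse, as was Tnfrsf11a. Because these genes were picked for likeness to the mediators, sharing their extreme mouse follows largely from the choice. Their r was not computed without pair 4. For Wnt4 they were Rnh1 (0.84), Nudcd3 (0.82) and Gm33782 (0.81).

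The partners of these mediators were read from lists of the hormone receptors, estrogen response genes, and the mediators' own receptors, secretion factors and targets. Of 98 such genes in the table, 5 (5.10%) had an unadjusted limma p of 0.05 or less, close to the 3.81% of all genes, with 4 higher (1.95% of all genes were) and 1 lower (1.85% were) and none at an adjusted p under 0.05. Their median log2 fold change was 0.0063. Of the 20 listed genes for Wnt receptors, secretion and antagonists, Rnf43 and Fzd7 passed, and 1 of 7 Wnt target genes, Axin2. Axin2, a feedback inhibitor that is induced by canonical Wnt signals, had 118 to 201 normalized counts in WT and 146 to 279 in OE/OE. It was higher in OE/OE in each of the 7 pairs (158 ± 29.0 against 218 ± 41.4, SD, n = 7, exact sign-flip p = 0.0156), with a log2 fold change of 0.46 (SE 0.13, limma adjusted p = 1.00). The pan-epithelial markers, which moved in the same direction in 6 of 7 pairs, had a median log2 fold change of 0.11, and their part in these 4 higher genes was not tested. The increases of Axin2 were 0.81 in pair 1, 0.64 in pair 5 and 0.85 in pair 6, and smallest in pair 7 at 0.03. The other Wnt target genes had log2 fold changes from -0.26 (Procr) to 0.18 (Nkd1). Rnf43, a ubiquitin ligase that removes Frizzled receptors and is inhibited by R-spondins, rose from 677 to 850 mean normalized counts (log2 fold change 0.31, 6 of 7 pairs, exact sign-flip p = 0.0469). Fzd7, a Frizzled receptor, rose from 2608 to 3264 (log2 fold change 0.32, 6 of 7 pairs), where the exact sign-flip p was 0.0781. Axin2, Rnf43 and Fzd7 were named for passing limma on these same pairs, so their sign-flip p is not separate evidence. The R-spondin receptors Lgr4 and Lgr5 did not pass, with log2 fold changes of 0.10 (SE 0.13) and 0.15 (SE 0.16).

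Of 10 genes for amphiregulin shedding and its receptors, only Rhbdf2 passed, which encodes an iRhom partner of the ADAM17 sheddase. Rhbdf2 was higher in OE/OE in all 7 pairs, at 3047 mean normalized counts against 2635 in WT (log2 fold change 0.21, SE 0.07, exact sign-flip p = 0.0156, limma adjusted p = 1.00). Both tests use the same pair differences. Egfr, the amphiregulin receptor, had a log2 fold change of 0.04. None of 18 RANK signaling genes passed: Traf6, the adaptor of RANK, had 0.06, and the RANK targets Id2 and Elf5 had 0.12 and 0.14. Among these 18 genes 11 (61.1%) differed between litters, where 33.3% of all genes did. None of 7 calcitonin and CGRP receptor genes passed. Calcr, the calcitonin receptor, was nearly absent with 0 to 19.6 normalized counts over the 14 libraries, whereas Calcrl, the receptor of the calcitonin gene-related peptide, had 309 to 2128. Ramp3, a partner of both receptors, was lowest relative to WT in the pairs in which Calca was too, pairs 1 (504 in WT and 120 in OE/OE) and 5 (338 and 92.8), and had a log2 fold change of -0.48 (SE 0.35). Among 19 relatives of ADAMTS18 and genes of the basement membrane, Fbn1 was the single gene to pass, lower in OE/OE at -0.30. The mean of the fibroblast markers was also lower in OE/OE in 5 of 7 pairs, without passing the exact sign-flip test (p = 0.125). Of these 10 markers 2 were called lower, none with an adjusted p under 0.05. Their part in the Fbn1 value was not tested. Foxa1, the pioneer factor of estrogen receptor, had a log2 fold change of 0.08, and the hormone receptors Esr1, Pgr and Prlr had log2 fold changes of 0.18, -0.23 and -0.31 (limma unadjusted p = 0.362, 0.316 and 0.253). None of 10 estrogen response genes passed, with Greb1 at 0.42 (limma unadjusted p = 0.0839).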

How the data were processed

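RNA of mammary epithelial cells from 14 mice was sequenced from paired ends. The authors mapped the reads to mm10 with TopHat 2.0.10, counted fragments per GENCODE M21 gene with htseq-count (HTSeq 0.6.0), dropped genes that did not reach 10 fragments in 7 or more libraries, and divided by DESeq 1.18.0 size factors. The deposited signal is thus a normalized count on a linear scale. Dividing by the smallest step of a library returned whole fragments for 100% of its values (tolerance 0.001), which gave the fragments and the depth (lowest 20125106 in WT and 34074791 in OE/OE). The counts were made without a stated strand setting. Positions and exon lengths came from GENCODE M21 (GRCm38), which held all 16124 identifiers.

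Genotypes were compared with limma 3.58.1 under R 4.3.3 (trend, log2(normalized count + 1), pair as a block), chosen in place of the study's per-gene paired test, which was an alternative. The value for Calca depends on the pseudocount. The threshold was an unadjusted p of 0.05, with Benjamini-Hochberg adjustment over all genes beside it. For single genes the signs of the 7 pair differences were flipped in all 128 ways (exact sign-flip test, two-sided). Relations between genes used exact permutation, adjusted over 28. Pairing came from the labels; deviations from the genotype mean correlated between littermates with a median r of 0.522 (lowest 0.171) (highest 0.748) and between other mice with -0.151 (from -0.538 to 0.634). edgeR 4.0.16 (quasi-likelihood) and DESeq2 1.42.0 were run on the recovered fragments and called 597 and 626 genes at the unadjusted threshold. Of the fits, only limma with the pair as a block was tested on simulated data. Other genes were named by a rule: the genes that define each list, listed genes past the threshold, and the 3 genes most like each mediator. The mediators and lists were chosen with earlier results of these data known, and p-values of litters or genotypes measure the spread between these mice.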

Additional observations from a re-analysis of the deposited data

Results flagged for a closer look

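In 54 groups of 7 mice (8 genes and 19 gene lists in each genotype), the gap between the highest or lowest mouse and its nearest neighbour was divided by the range of the group, and 3 were above 0.568, Dixon's limit for 7 mice. Chance alone would give about 2.7 such groups. Tnfsf11 was high in the OE/OE mouse of pair 4 (log2 level 9.48, nearest 5.99, gap 0.596 of the range). The lymphocyte markers were high in the WT mouse of pair 1 (7.25, nearest 4.97, gap 0.64). The alveolar and milk genes, of which 4 of 10 were in the table, were high in the OE/OE mouse of pair 3 (11.7, nearest 9.28, gap 0.81), a mouse with 1452 normalized counts of Calca and 439 of Rspo1.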

How the results depend on the processing

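Between the alternatives, genes with an unadjusted p of 0.05 or less numbered 182 without the pair as a block, 1380 with the hormone-sensing luminal markers and 2450 with the adipocyte markers as a covariate, against 614; with 1 pair left out they numbered 381 (pair 6) to 1366 (pair 4), and 1196 without pair 1. Genes that differed between litters numbered 3229 (pair 7) to 6390 (pair 4) with 1 pair left out, 3348 without pair 5, against 5370, and 7971 with DESeq2. None of the 8 mediators passed without the block. The pair block was the design of the study, and without it the count of genes fell by over 1.5 times.

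Directions of 7 mediators changed in at least 1 fit, and that of Areg in none. With the hormone-sensing markers as a covariate the sign turned for Wnt4 (0.028), Rspo1 (-0.079), Tnfsf11 (-0.028), Calca (-1.51), Tnfrsf11a (0.067) and Adamts18 (-0.063). With the adipocyte markers it turned for Wnt4 (0.17), Rspo1 (-0.51), Tnfsf11 (-0.44), Calca (-3.78), Tnfrsf11a (0.23), Tnfrsf11b (-0.34) and Adamts18 (-0.68). Calca also turned with a pseudocount of 0.1 (-0.012), with edgeR (-0.019) and with DESeq2 (-0.68). With 1 pair left out, Calca ran from -1.50 (pair 4) to 0.99, Wnt4 from -0.22 to 0.0080 (pair 4), Rspo1 from -0.10 (pair 4) to 0.49, Tnfsf11 from -0.042 (pair 4) to 0.85 and Tnfrsf11a from -0.14 to 0.059 (pair 4). Areg ran from -0.63 to -0.14 over all fits. For the ratio of Tnfsf11 to Tnfrsf11b, leaving out 1 pair was an alternative chosen after seeing the data. The mean pair log2 difference of this ratio then ran from -0.13 (pair 7) to 0.50. The litter difference of Areg was lost with limma without trend (adjusted p = 0.0513) and without pair 3 or 7 (0.0532), and Tnfsf11 and Calca differed between litters with DESeq2 (0.00056 and 0.0026), Calca also with limma without pair 4 (adjusted p = 0.0200). The causes were not tested. Relations between Areg and Adamts18 reversed to r = -0.13 without pairs 1 and 4. Over the within-pair differences 20 relations passed with a pseudocount of 10 and 17 with TMM. Depth limits Calca and Tnfsf11 most, with as few as 1 and 12 fragments in a library.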
